A study of Mus musculus with 21 samples.

Results

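The 32 genes described here carry fatty acids from the blood into the heart muscle cell and oxidise them. They were taken by symbol from a table of 14732 genes, in which all 32 were found, and all 32 were among the 12333 genes with enough reads to be tested. By role they comprise 5 genes of import, 7 of the carnitine shuttle and its control, 9 of the β-oxidation spiral, 4 for unsaturated fatty acids and peroxisomes, 3 of the electron transfer flavoprotein, and 4 of uncoupling proteins and lipid droplets. RNA came from the heart ventricles of male mice aged 2 months, either Taz knockouts (KO/Y, here KO) or their littermates with the intact gene (WT/Y, here WT), and polyA RNA was sequenced from stranded libraries. The animals had 3 backgrounds that the labels call BL6J (C57/J in the series' design text), AJ-F1 and CAST-F1, and no treatment is given. The libraries numbered 4 WT and 4 KO for BL6J, 4 WT and 3 KO for AJ-F1, and 3 of each for CAST-F1. The cross behind the names ending in F1 and the Taz allele are not described in the labels. A library is named here by background, genotype and replicate number, as in AJ-F1 WT 3.

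Long-chain fatty acids are the main fuel of the adult heart. Lipoprotein lipase frees them from circulating triglyceride at the capillary wall, membrane proteins and a cytosolic carrier pass them on, and the carnitine shuttle moves them across the mitochondrial membranes. Malonyl-CoA, made by acetyl-CoA carboxylase and removed by malonyl-CoA decarboxylase, inhibits the first step of that shuttle. In the matrix the β-oxidation spiral shortens the acyl chain in repeated rounds and hands electrons to the electron transfer flavoprotein, which passes them to the respiratory chain. Taz encodes tafazzin, the acyltransferase that remodels cardiolipin in the inner mitochondrial membrane, where much of this machinery sits.

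Levels are given in CPM, the usual scaling of counts by the effective library size, and total counts ran from 3848172 to 10738130 per library. Taz stood at 36.5 to 61.0 CPM over the WT libraries and at 1.07 to 6.07 CPM over the KO libraries, and no library went against its label. All 14 cardiomyocyte markers on the list used here had reads in every library. The library AJ-F1 WT 3 stood apart from the rest of its group: it was the lowest or the highest of the 4 AJ-F1 WT libraries for 78.3% of all genes tested, against 35.7%, 61.5% and 23.8% for AJ-F1 WT 1, AJ-F1 WT 2 and AJ-F1 WT 4. Over the 32 genes it was the lowest for 8 and the highest for 15, while AJ-F1 WT 1, AJ-F1 WT 2 and AJ-F1 WT 4 were at either end for 16, 17 and 8. Cd36 was at 461 CPM against 979 to 1607 CPM in the other 3, and Etfa at 151 CPM against 331 to 467 CPM in the other 3. Results of the 32 genes in AJ-F1 that change in call or direction, or by over 1.5 times, without it are also given that way. Other genes, further lists and cell markers are given with this library only. Log2 fold changes are KO over WT ± standard error (SE), adjusted p is that of edgeR's quasi-likelihood test after Benjamini-Hochberg adjustment over the 12333 genes, and a gene is called when it is below 0.05. Separate animals behind the libraries are not stated in the labels, and the p-values thus measure the spread between libraries, which may be technical.

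Most of the fatty acid genes that changed were lower in KO hearts, and the 13 that fell in every background run from the capillary lipase to the last step of the spiral. They were Lpl, Slc27a1, Cpt2, Slc25a20, Crat, Mlycd, Acacb, Acads, Hadh, Acaa2, Eci1, Decr1 and Etfdh; of all genes tested, 4.77% were lower in all 3 backgrounds. Another 13 were called in no background, as were 59.7% of all genes. In BL6J, 16 of the 32 genes were lower, where 9.51% of all genes tested were lower, and Angptl4 alone was higher, where 12.8% of all genes were. AJ-F1 had 14 of the 32 lower, against 15.7% of all genes, and none higher, against 12.9%. CAST-F1 had 17 lower, against 9.59% of all genes, and none higher, against 10.7%. At an unadjusted p below 0.05 in either direction there were 20, 16 and 21 of the 32 in BL6J, AJ-F1 and CAST-F1, against 33.1%, 40.2% and 32.1% of all genes. DESeq2 gave no higher gene in AJ-F1 or CAST-F1 either. The median log2 fold change of the 32 genes was -0.50 in BL6J, -0.31 in AJ-F1 and -0.48 in CAST-F1, and the medians over all genes tested were 0.01, 0.01 and -0.02. Averaged over the 3 backgrounds, 22 were lower and 1 higher, where 24.2% and 23.7% of all genes were. KO libraries lay wholly below WT libraries for 18 of the 32 genes in BL6J, 12 in AJ-F1 and 23 in CAST-F1, and for 12.9%, 14.9% and 22.6% of all genes. They lay wholly above for 0 in BL6J, 0 in AJ-F1 and 3 in CAST-F1 (Fabp3, Angptl4 and Plin2, none of them called there). The share of all genes lying above is not given here.

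**Figure D1:**
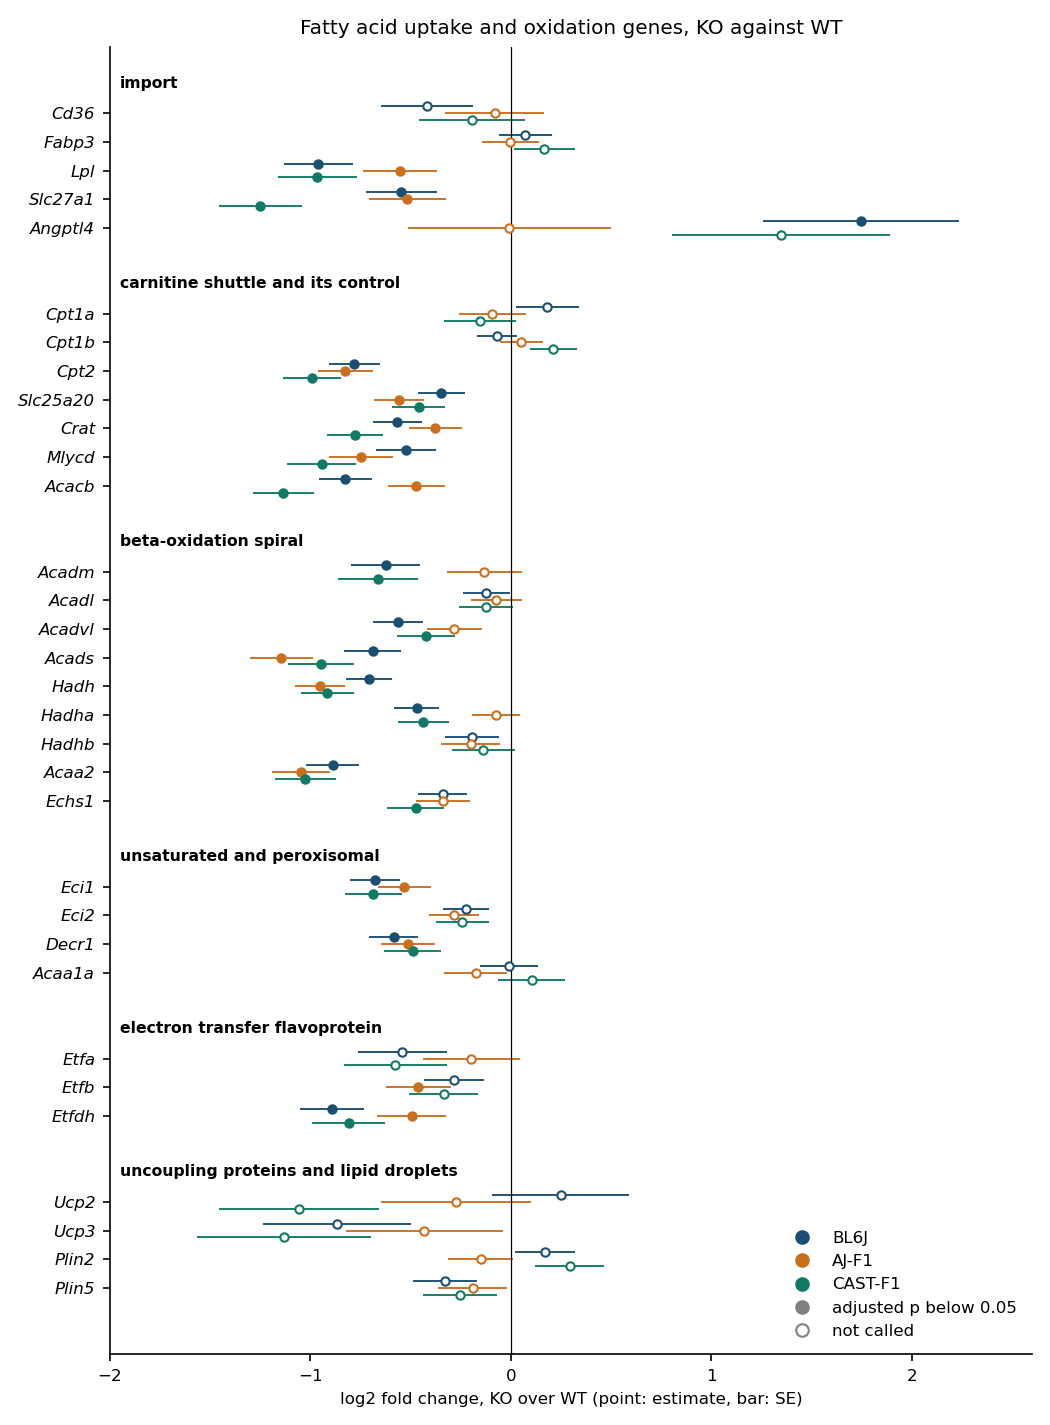
Log2 fold change of KO over WT (horizontal axis; point, estimate; bar, SE) for the 32 genes grouped by role, in BL6J (blue), AJ-F1 (orange) and CAST-F1 (green); filled points have an adjusted p below 0.05. The 13 genes with 3 filled points all lie left of 0, Angptl4 in BL6J is the only filled point right of 0, and Cpt1b and Fabp3 lie near 0.

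Summed over the 32 genes, the level ran from 22105 to 24798 CPM in BL6J WT and from 15851 to 18476 CPM in BL6J KO. The AJ-F1 sums ran from 21006 to 24474 CPM in WT and from 17811 to 19264 CPM in KO. CAST-F1 sums ran from 22149 to 27390 CPM in WT and from 18804 to 18846 CPM in KO. In each background every KO library lay below every WT library, and the mean share of all counts went from 2.35% to 1.74% in BL6J, from 2.26% to 1.84% in AJ-F1 and from 2.51% to 1.88% in CAST-F1. The 14 cardiomyocyte markers moved with them. Their summed level was 118892 to 142419 CPM in BL6J WT and 86937 to 97568 CPM in BL6J KO, 116864 to 140157 and 87018 to 95524 CPM in AJ-F1, and 103605 to 140703 and 89927 to 100607 CPM in CAST-F1. Of these markers 6, 5 and 6 were lower in BL6J, AJ-F1 and CAST-F1 and 0, 0 and 1 higher, with medians of -0.34, -0.36 and -0.36. The ratio of the summed fatty acid genes to the summed markers was 0.186 ± 0.0214 in BL6J WT and 0.188 ± 0.00747 in BL6J KO (SD, n = 4 each). It was 0.181 ± 0.0190 in AJ-F1 WT (n = 4) and 0.201 ± 0.00915 in AJ-F1 KO (n = 3), and 0.205 ± 0.00961 and 0.200 ± 0.0116 in CAST-F1 (n = 3 each). The ranges of this ratio overlapped between WT and KO in all 3 backgrounds. In RNA of whole ventricle, fewer cells of a type and less RNA per cell cannot be told apart, and the part of the markers in the results below was not tested.

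**Figure D2:**
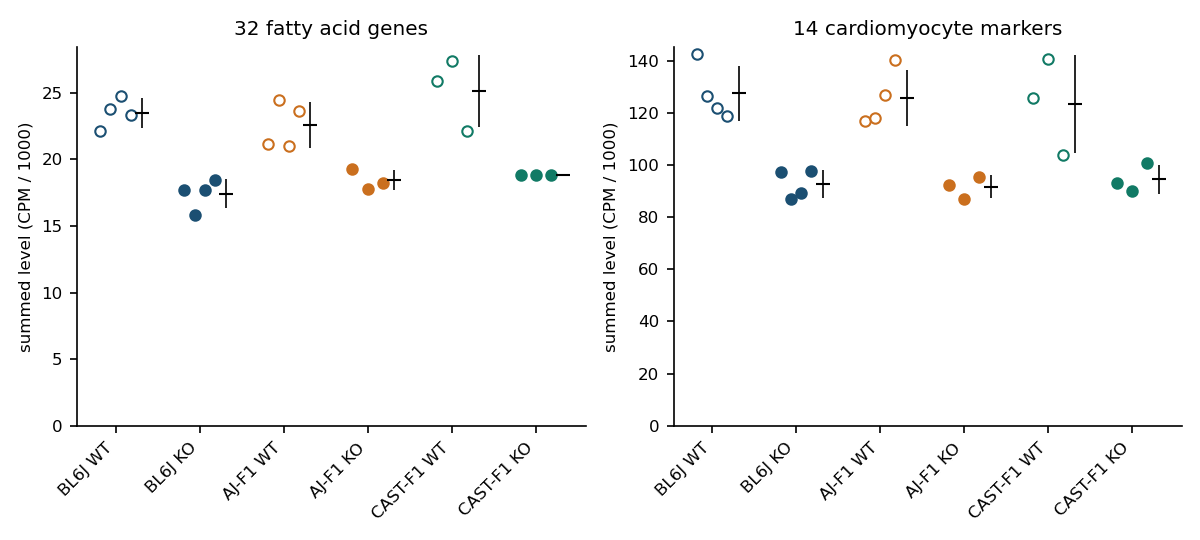
Summed level (CPM divided by 1000) of the 32 fatty acid genes (left) and of the 14 cardiomyocyte markers (right) in each library (open, WT; filled, KO; bar, mean and SD of the group). In both panels every KO library lies below every WT library of its background.

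Among the import genes, the lipase and one transporter fell while the most abundant carrier did not pass the test. Lpl (lipoprotein lipase; chromosome 8, 68880491 to 68907448, plus strand, GRCm38) releases fatty acids from lipoproteins at the capillary wall. Lpl stood at 3851, 4606, 5484 and 4854 CPM in BL6J WT and at 2249.9, 2072, 2676 and 2665 CPM in BL6J KO. For Lpl in AJ-F1 the libraries stood at 3581, 5192, 2510.0 and 3900.2 CPM in AJ-F1 WT and at 2517, 2163 and 3091 CPM in AJ-F1 KO. Lpl in CAST-F1 stood at 4659, 5001 and 4381 CPM in CAST-F1 WT and at 2548, 2479.9 and 2168 CPM in CAST-F1 KO. Every KO library lay below every WT library in BL6J and CAST-F1, whereas in AJ-F1 the WT library AJ-F1 WT 3 lay within the KO range. Lpl fell in all 3 backgrounds, by 0.96 ± 0.17 on the log2 scale for BL6J (adjusted p = 0.00025), 0.55 ± 0.18 for AJ-F1 (adjusted p = 0.0296) and 0.96 ± 0.20 for CAST-F1 (adjusted p = 0.0011). For Lpl, the AJ-F1 call ended without any one of AJ-F1 WT 2, AJ-F1 WT 4, AJ-F1 KO 1 and AJ-F1 KO 2 (adjusted p = 0.0564 to 0.136), with a required fold of 1.2 (adjusted p = 0.0902) or with that background fitted alone (adjusted p = 0.190). A block of replicate number in the fit ended it too (adjusted p = 0.142).

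Slc27a1 (chromosome 8, 71568882 to 71587302, plus strand) encodes the fatty acid transport protein FATP1, which takes up long-chain fatty acids and links them to CoA. Slc27a1 stood at 80.9, 113, 133 and 147 CPM in BL6J WT and at 66.6, 106, 70.4 and 81.9 CPM in BL6J KO. In AJ-F1, Slc27a1 stood at 127, 132, 157 and 187 CPM in AJ-F1 WT and at 101, 116 and 99.7 CPM in AJ-F1 KO. For CAST-F1, Slc27a1 stood at 182, 184 and 149 CPM in CAST-F1 WT and at 67.4, 81.8 and 67.7 CPM in CAST-F1 KO. The groups did not overlap in AJ-F1 and CAST-F1, and in BL6J the library BL6J WT 1 lay within the KO range. Slc27a1 fell in all 3 backgrounds, by 0.55 ± 0.18 on the log2 scale for BL6J (adjusted p = 0.0296), 0.52 ± 0.19 for AJ-F1 (adjusted p = 0.0475) and 1.25 ± 0.21 for CAST-F1 (adjusted p = 0.00015). For Slc27a1, the BL6J call ended without any one of BL6J WT 3, BL6J WT 4, BL6J KO 1, BL6J KO 3 and BL6J KO 4 (adjusted p = 0.0606 to 0.123) or with a required fold of 1.2 (adjusted p = 0.106). In AJ-F1 it ended without any one of 13 libraries, among them all 3 KO libraries, AJ-F1 WT 3 and AJ-F1 WT 4 (adjusted p = 0.0503 to 0.155), the other 8 being BL6J WT 2, BL6J WT 3, BL6J KO 4, CAST-F1 WT 1, CAST-F1 WT 2, CAST-F1 WT 3, CAST-F1 KO 2 and CAST-F1 KO 3. The same AJ-F1 call was also lost with the GC offset described below (adjusted p = 0.306), with AJ-F1 fitted alone (adjusted p = 0.126), with a required fold of 1.2 (adjusted p = 0.127) and with other filters on low counts (adjusted p = 0.0569 and 0.0607).

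Angptl4 encodes a secreted protein that inhibits lipoprotein lipase and is a known PPAR target, and it was the least abundant of the 32 genes per kilobase of exon in BL6J WT (2.27 ± 1.31 CPM per kb, n = 4). Angptl4 stood at 2.31, 10.7, 12.7 and 6.42 CPM in BL6J WT and at 39.5, 27.4, 11.3 and 27.7 CPM in BL6J KO. In AJ-F1, Angptl4 stood at 19.2, 6.495, 10.3 and 12.5 CPM in AJ-F1 WT and at 4.62, 19.2 and 12.5 CPM in AJ-F1 KO. For CAST-F1, Angptl4 stood at 19.0, 6.04 and 7.23 CPM in CAST-F1 WT and at 35.5, 19.5 and 26.6 CPM in CAST-F1 KO. The KO and WT libraries overlapped in BL6J and AJ-F1, and every CAST-F1 KO library lay above every CAST-F1 WT library. Angptl4 rose in BL6J by 1.75 ± 0.49 on the log2 scale (adjusted p = 0.0116), a call that ended with the replicate block (adjusted p = 0.0560). The estimate was -0.01 ± 0.51 for AJ-F1 (adjusted p = 0.994) and 1.35 ± 0.54 for CAST-F1 (adjusted p = 0.0874), and the latter passed the threshold without CAST-F1 WT 1 (adjusted p = 0.0292).

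Cd36, which encodes the main fatty acid translocase of the heart muscle membrane, was not called in any background. It ranged over 1289.9 to 1550.3 CPM for BL6J WT against 972 to 1153 CPM for BL6J KO, with no overlap, over 461 to 1607 CPM for AJ-F1 WT against 1004 to 1153 CPM for AJ-F1 KO, with overlap, and over 1399.8 to 1561 CPM for CAST-F1 WT against 1249 to 1322 CPM for CAST-F1 KO, again with no overlap. The log2 fold changes were -0.42 ± 0.23 for BL6J (adjusted p = 0.210), -0.08 ± 0.25 for AJ-F1 (adjusted p = 0.8289) and -0.19 ± 0.26 for CAST-F1 (adjusted p = 0.664). Cd36 in BL6J passed the threshold without AJ-F1 WT 3 (adjusted p = 0.0148), with that background fitted alone (adjusted p = 0.0058) or with the GC offset (adjusted p = 0.00015). Without AJ-F1 WT 3 the AJ-F1 estimate for Cd36 was -0.36 ± 0.15, adjusted p = 0.0791. With the GC offset Cd36 was lower in all 3 backgrounds, at -0.50, -0.46 and -0.40 in BL6J, AJ-F1 and CAST-F1 (adjusted p = 0.00015, 0.00089 and 0.0052). Fabp3, the cytosolic fatty acid binding protein of heart, was by far the most abundant of the 32 genes per length, at 4384 ± 413 CPM per kb of exon in BL6J WT (SD, n = 4). Fabp3 ranged over 3239 to 3966 CPM for BL6J WT against 2959 to 4474 CPM for BL6J KO, over 2945 to 3762 CPM for AJ-F1 WT against 3023 to 4013 CPM for AJ-F1 KO, and over 3181 to 3985 CPM for CAST-F1 WT against 4009.6 to 4201 CPM for CAST-F1 KO. In CAST-F1 the KO libraries of Fabp3 lay above the WT libraries, and in BL6J and AJ-F1 the groups overlapped. Its log2 fold changes were 0.07 ± 0.13 for BL6J (adjusted p = 0.746), -0.00 ± 0.14 for AJ-F1 (adjusted p = 0.995) and 0.17 ± 0.15 for CAST-F1 (adjusted p = 0.480).

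**Figure D3:**
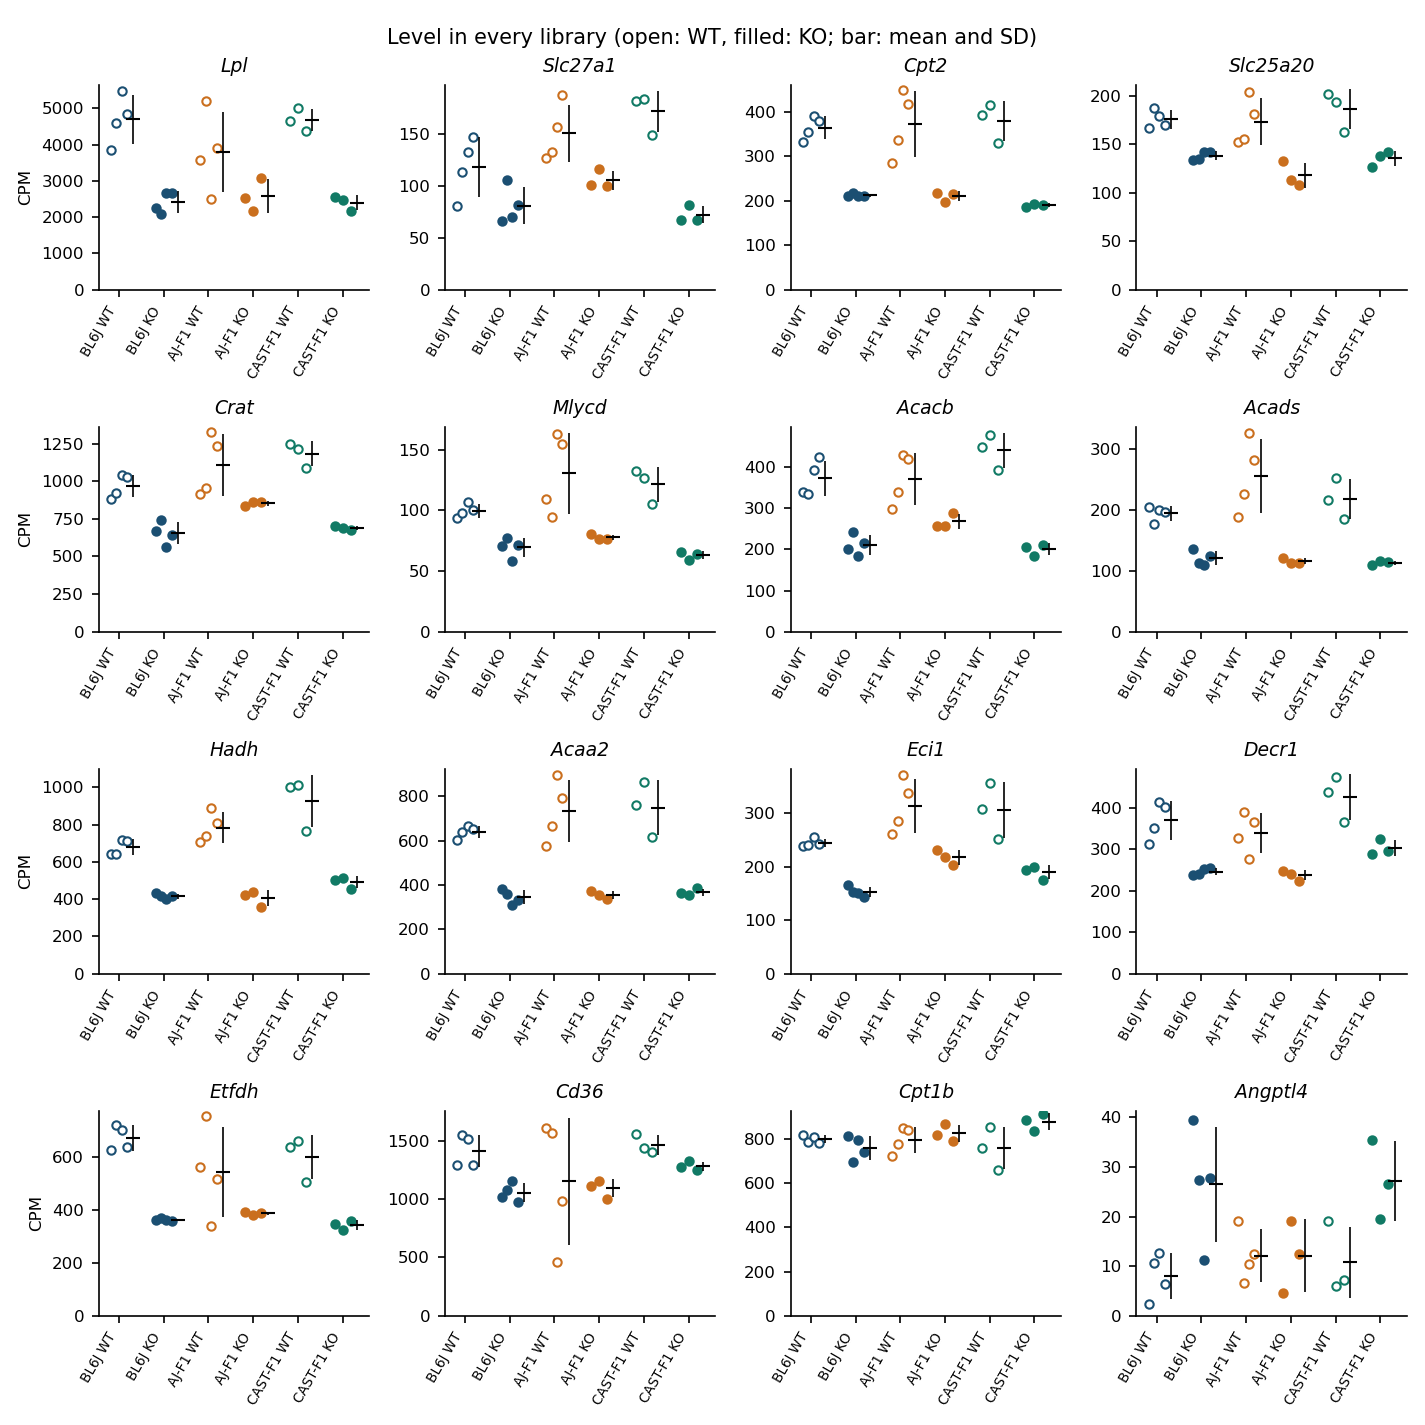
Level in CPM (vertical axis, from 0) in every library of the 13 genes lower in all 3 backgrounds and of Cd36, Cpt1b and Angptl4 (open, WT; filled, KO; bar, mean and SD of the group). The KO points of Cpt2, Acads, Hadh and Acaa2 lie below all WT points of their background, and those of Cpt1b overlap with WT.

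In the carnitine shuttle, the steps after the first fell in every background and the first did not pass the test in any. Cpt1b (muscle isoform) and Cpt1a (liver isoform) encode carnitine palmitoyltransferase 1, which forms acylcarnitine at the outer membrane. Cpt1b was the main isoform per length, at 237 ± 5.29 CPM per kb of exon against 6.98 ± 1.27 CPM per kb for Cpt1a in BL6J WT (SD, n = 4). Cpt1b ranged over 781 to 818 CPM for BL6J WT against 695 to 815 CPM for BL6J KO, over 721 to 849 CPM for AJ-F1 WT against 792 to 869 CPM for AJ-F1 KO, and over 662 to 852 CPM for CAST-F1 WT against 837 to 913 CPM for CAST-F1 KO, with overlap in each background. Its log2 fold changes were -0.07 ± 0.10 for BL6J (adjusted p = 0.685), 0.05 ± 0.11 for AJ-F1 (adjusted p = 0.741) and 0.21 ± 0.12 for CAST-F1 (adjusted p = 0.218). Of its exon bases, 81.4% are also annotated to Gm44502 on the same strand, which is not among the genes analysed here. Cpt1a gave 0.18 ± 0.16 for BL6J (adjusted p = 0.454), -0.09 ± 0.17 for AJ-F1 (adjusted p = 0.704) and -0.15 ± 0.18 for CAST-F1 (adjusted p = 0.606).

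Cpt2 (chromosome 4, 107903981 to 107923610, minus strand) encodes carnitine palmitoyltransferase 2, which regenerates acyl-CoA inside the inner membrane. Cpt2 stood at 332, 355, 390.4 and 379 CPM in BL6J WT and at 209.7, 217, 212 and 211 CPM in BL6J KO. In AJ-F1, Cpt2 stood at 285, 337, 448 and 418 CPM in AJ-F1 WT and at 217, 197 and 216 CPM in AJ-F1 KO. For CAST-F1, Cpt2 stood at 391.6, 415 and 329 CPM in CAST-F1 WT and at 186, 193 and 191 CPM in CAST-F1 KO. No KO library reached the lowest WT library of its background. Cpt2 fell in all 3 backgrounds, by 0.78 ± 0.13 on the log2 scale for BL6J (adjusted p = 8.8e-05), 0.82 ± 0.14 for AJ-F1 (adjusted p = 0.00014) and 0.99 ± 0.15 for CAST-F1 (adjusted p = 3.6e-05). This call held in each background under all 8 other settings and with each of the 21 libraries left out. Cpt2 shared this with Acads, Hadh and Acaa2, and with no other of the 13 genes lower in all 3 backgrounds.

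Slc25a20 (chromosome 9, 108662088 to 108684641, plus strand) encodes the carrier that exchanges acylcarnitine for carnitine across the inner membrane. Slc25a20 stood at 166, 188, 179.8 and 169.5 CPM in BL6J WT and at 134, 135, 142 and 143 CPM in BL6J KO. In AJ-F1, Slc25a20 stood at 153, 156, 204 and 181 CPM in AJ-F1 WT and at 132, 113 and 108 CPM in AJ-F1 KO. For CAST-F1, Slc25a20 stood at 202, 194 and 163 CPM in CAST-F1 WT and at 127, 138 and 142 CPM in CAST-F1 KO. Groups did not overlap in any background. Slc25a20 fell in all 3 backgrounds, by 0.35 ± 0.12 on the log2 scale for BL6J (adjusted p = 0.0334), 0.56 ± 0.13 for AJ-F1 (adjusted p = 0.0025) and 0.46 ± 0.13 for CAST-F1 (adjusted p = 0.0165). For Slc25a20, the BL6J call ended without any one of BL6J WT 2, BL6J WT 3, BL6J WT 4, BL6J KO 1, BL6J KO 2, BL6J KO 3 and BL6J KO 4 (adjusted p = 0.0507 to 0.0909) or with a required fold of 1.2 (adjusted p = 0.301). The CAST-F1 call ended without any one of CAST-F1 WT 1, CAST-F1 WT 2 and CAST-F1 KO 1 (adjusted p = 0.0596 to 0.0827) or with a required fold of 1.2 (adjusted p = 0.119). The AJ-F1 call ended with that background fitted alone (adjusted p = 0.0897). With the replicate block the BL6J and CAST-F1 calls ended (adjusted p = 0.113 and 0.0778).

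Crat (chromosome 2, 30400471 to 30415813, minus strand) encodes carnitine acetyltransferase, which moves acetyl groups between CoA and carnitine. Crat stood at 884, 924, 1038 and 1026 CPM in BL6J WT and at 668, 739.8, 563 and 645 CPM in BL6J KO. In AJ-F1, Crat stood at 918, 952, 1325 and 1235 CPM in AJ-F1 WT and at 832, 862 and 864 CPM in AJ-F1 KO. For CAST-F1, Crat stood at 1247, 1216 and 1087 CPM in CAST-F1 WT and at 703, 689.6 and 677 CPM in CAST-F1 KO. KO and WT libraries did not overlap in any background. Crat fell in all 3 backgrounds, by 0.57 ± 0.12 on the log2 scale for BL6J (adjusted p = 0.0016), 0.38 ± 0.13 for AJ-F1 (adjusted p = 0.0364) and 0.78 ± 0.14 for CAST-F1 (adjusted p = 0.00038). For Crat, the AJ-F1 call ended without any one of AJ-F1 WT 3, AJ-F1 WT 4, AJ-F1 KO 1, AJ-F1 KO 2 and AJ-F1 KO 3 (adjusted p = 0.0756 to 0.103), with no filter on low counts (adjusted p = 0.0514), with a required fold of 1.2 (adjusted p = 0.202), with that background fitted alone (adjusted p = 0.228) or with the GC offset (adjusted p = 0.134). The replicate block ended this call as well (adjusted p = 0.193).

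Mlycd and Acacb, which encode enzymes that remove and make malonyl-CoA, both fell, while Acaca, the gene of the other acetyl-CoA carboxylase and not one of the 32, was called higher in BL6J and AJ-F1 (1.2005 ± 0.16, adjusted p = 6.0e-06, and 0.85 ± 0.16, adjusted p = 0.00053). Mlycd (chromosome 8, 119394878 to 119411102, plus strand) encodes malonyl-CoA decarboxylase, which removes this inhibitor of carnitine palmitoyltransferase 1. Mlycd stood at 93.5, 98.2, 107 and 101 CPM in BL6J WT and at 70.8, 77.3, 58.4 and 71.8 CPM in BL6J KO. In AJ-F1, Mlycd stood at 109.6, 94.97, 163 and 155 CPM in AJ-F1 WT and at 80.4, 76.3 and 76.6 CPM in AJ-F1 KO. For CAST-F1, Mlycd stood at 133, 126 and 106 CPM in CAST-F1 WT and at 66.1, 59.5 and 63.9 CPM in CAST-F1 KO. The groups were separate in every background. Mlycd fell in all 3 backgrounds, by 0.52 ± 0.15 on the log2 scale for BL6J (adjusted p = 0.0133), 0.75 ± 0.16 for AJ-F1 (adjusted p = 0.0017) and 0.94 ± 0.17 for CAST-F1 (adjusted p = 0.00042). For Mlycd, the BL6J call ended without BL6J KO 3 (adjusted p = 0.0634) or with a required fold of 1.2 (adjusted p = 0.0799). The AJ-F1 call ended with that background fitted alone (adjusted p = 0.0652).

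Acacb (chromosome 5, 114146535 to 114250761, plus strand) encodes acetyl-CoA carboxylase 2, the form at the mitochondrial surface that makes malonyl-CoA. Acacb stood at 339, 335, 393 and 424 CPM in BL6J WT and at 201, 243, 183 and 215 CPM in BL6J KO. In AJ-F1, Acacb stood at 299, 340.1, 429 and 420.1 CPM in AJ-F1 WT and at 258, 258 and 289 CPM in AJ-F1 KO. For CAST-F1, Acacb stood at 449.8, 479 and 394 CPM in CAST-F1 WT and at 206, 185 and 212 CPM in CAST-F1 KO. All KO libraries lay below all WT libraries of their background. Acacb fell in all 3 backgrounds, by 0.82 ± 0.13 on the log2 scale for BL6J (adjusted p = 7.9e-05), 0.47 ± 0.14 for AJ-F1 (adjusted p = 0.0171) and 1.13 ± 0.15 for CAST-F1 (adjusted p = 1.2e-05). For Acacb, the AJ-F1 call ended without any one of AJ-F1 WT 4, AJ-F1 KO 1 and AJ-F1 KO 2 (adjusted p = 0.0547 to 0.0605), with a required fold of 1.2 (adjusted p = 0.0955), with that background fitted alone (adjusted p = 0.143) or with the GC offset (adjusted p = 0.129). The same happened with the replicate block (adjusted p = 0.108).

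In the spiral, 1 of the 4 acyl-CoA dehydrogenases that open each round fell in all 3 backgrounds. Acads (chromosome 5, 115110299 to 115119346, minus strand) encodes the short-chain enzyme. Acads stood at 205, 177, 201 and 196 CPM in BL6J WT and at 135, 113, 110.4 and 124 CPM in BL6J KO. In AJ-F1, Acads stood at 188, 227, 327 and 282 CPM in AJ-F1 WT and at 122, 113 and 113 CPM in AJ-F1 KO. For CAST-F1, Acads stood at 216, 252 and 186 CPM in CAST-F1 WT and at 109, 116 and 115 CPM in CAST-F1 KO. KO libraries lay below WT libraries throughout. Acads fell in all 3 backgrounds, by 0.69 ± 0.14 on the log2 scale for BL6J (adjusted p = 0.0011), 1.14 ± 0.16 for AJ-F1 (adjusted p = 1.5e-05) and 0.95 ± 0.17 for CAST-F1 (adjusted p = 0.00026). Acadm (medium-chain) and Acadvl (very-long-chain) were lower in BL6J and CAST-F1 and not called in AJ-F1. Acadm ranged over 726 to 818 CPM for BL6J WT against 473 to 532 CPM for BL6J KO, over 368 to 921 CPM for AJ-F1 WT against 579.7 to 620.4 CPM for AJ-F1 KO, and over 619 to 801 CPM for CAST-F1 WT against 431 to 461 CPM for CAST-F1 KO. Its log2 fold changes were -0.62 ± 0.17 for BL6J (adjusted p = 0.0107), -0.13 ± 0.18 for AJ-F1 (adjusted p = 0.622) and -0.66 ± 0.20 for CAST-F1 (adjusted p = 0.0204). Acadvl gave -0.56 ± 0.13 for BL6J (adjusted p = 0.0022), -0.28 ± 0.14 for AJ-F1 (adjusted p = 0.125) and -0.42 ± 0.14 for CAST-F1 (adjusted p = 0.0425). For Acadm, the CAST-F1 call ended without any one of CAST-F1 WT 1, CAST-F1 WT 2, CAST-F1 KO 1 and CAST-F1 KO 3 (adjusted p = 0.0528 to 0.120) or with a required fold of 1.2 (adjusted p = 0.0620). For Acadvl, the CAST-F1 call ended without any one of AJ-F1 KO 1, BL6J WT 2, BL6J WT 3, BL6J WT 4, CAST-F1 WT 1, CAST-F1 WT 2, CAST-F1 KO 1, CAST-F1 KO 2 and CAST-F1 KO 3 (adjusted p = 0.05002 to 0.246), with a required fold of 1.2 (adjusted p = 0.197) or with the GC offset (adjusted p = 0.0766). Under the replicate block it was lost too (adjusted p = 0.117). In AJ-F1, Acadm passed the threshold without AJ-F1 WT 3 (adjusted p = 0.0495) and Acadvl without AJ-F1 WT 1 (adjusted p = 0.0348). Of the exon bases of Acadvl, 42.9% overlap Dvl2 on the opposite strand, which had 729 reads in all against 89019 for Acadvl. Acadl (long-chain) was the most abundant dehydrogenase per length, at 444 ± 25.1 CPM per kb of exon in BL6J WT (SD, n = 4), and gave -0.12 ± 0.12 for BL6J (adjusted p = 0.510), -0.07 ± 0.13 for AJ-F1 (adjusted p = 0.700) and -0.12 ± 0.14 for CAST-F1 (adjusted p = 0.580). It was not called in any background, and KO and WT libraries overlapped in each.

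Echs1 encodes the short-chain enoyl-CoA hydratase of the second step, and Hadh the short-chain 3-hydroxyacyl-CoA dehydrogenase of the third. Hadh (chromosome 3, 131233419 to 131272101, minus strand) stood at 642, 645, 719.7 and 713 CPM in BL6J WT and at 433, 419, 399 and 414 CPM in BL6J KO. In AJ-F1, Hadh stood at 705, 736, 887 and 808 CPM in AJ-F1 WT and at 424, 438 and 357 CPM in AJ-F1 KO. For CAST-F1, Hadh stood at 999, 1014 and 766 CPM in CAST-F1 WT and at 504, 514 and 455 CPM in CAST-F1 KO. KO libraries never reached the WT range of their background. Hadh fell in all 3 backgrounds, by 0.71 ± 0.11 on the log2 scale for BL6J (adjusted p = 8.4e-05), 0.95 ± 0.13 for AJ-F1 (adjusted p = 8.3e-06) and 0.92 ± 0.13 for CAST-F1 (adjusted p = 2.8e-05). Echs1 was called lower in CAST-F1 and not in BL6J or AJ-F1, and its response was not called different between backgrounds, with log2 fold changes of -0.34 ± 0.12 for BL6J (adjusted p = 0.0528), -0.34 ± 0.13 for AJ-F1 (adjusted p = 0.0633) and -0.47 ± 0.14 for CAST-F1 (adjusted p = 0.0209). For Echs1, the CAST-F1 call ended without any one of CAST-F1 WT 2, CAST-F1 KO 2 and CAST-F1 KO 3 (adjusted p = 0.0535 to 0.158), with a required fold of 1.2 (adjusted p = 0.119) or with the replicate block (adjusted p = 0.0607). Echs1 in BL6J passed the threshold without any one of AJ-F1 WT 1, AJ-F1 WT 2, AJ-F1 WT 3, BL6J KO 1, CAST-F1 WT 2 and CAST-F1 WT 3 (adjusted p = 0.0278 to 0.0495), with size factors of the DESeq2 type in edgeR (adjusted p = 0.0405), with a minimum of 1 CPM in 3 libraries (adjusted p = 0.0453), with the DESeq2 Wald test (adjusted p = 0.0187), with that background fitted alone (adjusted p = 0.0152) or with the GC offset (adjusted p = 0.0221). Echs1 in AJ-F1 passed the threshold without any one of AJ-F1 WT 1, AJ-F1 KO 1, BL6J KO 2 and CAST-F1 WT 3 (adjusted p = 0.0294 to 0.0495) or with the DESeq2 Wald test (adjusted p = 0.0327).

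Acaa2 (chromosome 18, 74779197 to 74806208, plus strand) encodes the mitochondrial thiolase that releases acetyl-CoA at the end of a round. Acaa2 stood at 603, 642, 666 and 653 CPM in BL6J WT and at 381, 359.8, 311 and 332 CPM in BL6J KO. In AJ-F1, Acaa2 stood at 578, 667, 897 and 792 CPM in AJ-F1 WT and at 373, 356 and 336 CPM in AJ-F1 KO. For CAST-F1, Acaa2 stood at 759, 866 and 619 CPM in CAST-F1 WT and at 362, 356 and 386 CPM in CAST-F1 KO. The highest KO library lay well under the lowest WT library in each background. Acaa2 fell in all 3 backgrounds, by 0.89 ± 0.13 on the log2 scale for BL6J (adjusted p = 2.7e-05), 1.05 ± 0.14 for AJ-F1 (adjusted p = 1.4e-05) and 1.02 ± 0.15 for CAST-F1 (adjusted p = 3.6e-05), and its average over the backgrounds, -0.99 ± 0.08, was the largest fall of the 32 genes.

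Hadha and Hadhb encode the α and β subunits of the trifunctional protein, which runs the later steps on long chains and binds the inner membrane. Their genes lie head to head on chromosome 5. Hadha ranged over 1968 to 2357 CPM for BL6J WT against 1469.8 to 1679 CPM for BL6J KO, over 1793 to 2276 CPM for AJ-F1 WT against 1887 to 2136 CPM for AJ-F1 KO, and over 1837 to 2426 CPM for CAST-F1 WT against 1536 to 1723 CPM for CAST-F1 KO. Its log2 fold changes were -0.47 ± 0.11 for BL6J (adjusted p = 0.0035), -0.07 ± 0.12 for AJ-F1 (adjusted p = 0.667) and -0.44 ± 0.13 for CAST-F1 (adjusted p = 0.0176). For Hadha, the BL6J call ended with a required fold of 1.2 (adjusted p = 0.0637). The CAST-F1 call ended without any one of CAST-F1 WT 1, CAST-F1 WT 2, CAST-F1 KO 1 and CAST-F1 KO 2 (adjusted p = 0.0553 to 0.101), with a required fold of 1.2 (adjusted p = 0.139) or with the replicate block (adjusted p = 0.0661). Hadhb was not called in any background, with -0.19 ± 0.14 for BL6J (adjusted p = 0.340), -0.20 ± 0.15 for AJ-F1 (adjusted p = 0.320) and -0.14 ± 0.16 for CAST-F1 (adjusted p = 0.591). Hadhb in AJ-F1 passed the threshold with the GC offset (adjusted p = 0.0149). The ratio of Hadha to Hadhb CPM ran from 1.12 to 1.19 in CAST-F1 WT and from 0.90 to 0.98 in CAST-F1 KO. In BL6J it ran from 1.16 to 1.55 in WT and 0.88 to 1.27 in KO, and in AJ-F1 from 1.01 to 1.51 and 1.13 to 1.55. The ratio did not overlap between WT and KO in CAST-F1 and overlapped in BL6J and AJ-F1; it was not tested across genes.

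Promoter windows from RefSeq (GRCm38.p6, the reference strain), here the 250 bases before the start, were on hand for 26 of the 32 genes. They were searched on both strands for AGGTCA, the half-site of nuclear receptors such as the PPARs, for the direct repeats AGGTCANAGGTCA and AGGNCANAGGNCA, which hold half-sites or looser forms of them, and for TGATGNAAT, a core of the amino acid response element. AGGTCA was in a window of 8 of the 26 genes (30.8%): Cd36, Cpt1a, Acadm, Acadvl, Echs1, Ucp3, Plin2 and Plin5. It was in 14.02% of the 32851 windows of all genes. A gene counted if any window under its symbol matched, whereas the share of all genes is over single windows, so these shares are not counted alike. No window of the 9 genes lower in all 3 backgrounds that had one held AGGTCA. The strict repeat was in no window of the 26 genes (0.0335% of all windows), nor was the looser one (0.338%). TGATGNAAT was in a window of 1 of the 26 genes, Echs1, and in 0.816% of all windows. A match is a run of letters, not a bound site, and AJ-F1 and CAST-F1 alleles may differ from the reference.

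The stretches outside annotated exons are shown, 5′ to 3′ on the gene's strand with matches in capitals, for genes that hold a motif (Acadm, Ucp3 and Echs1), for a gene lower in all 3 backgrounds that holds none (Acads), and for the bases between Hadha and Hadhb.
Acadm, chr3:153944644-153944893, minus strand: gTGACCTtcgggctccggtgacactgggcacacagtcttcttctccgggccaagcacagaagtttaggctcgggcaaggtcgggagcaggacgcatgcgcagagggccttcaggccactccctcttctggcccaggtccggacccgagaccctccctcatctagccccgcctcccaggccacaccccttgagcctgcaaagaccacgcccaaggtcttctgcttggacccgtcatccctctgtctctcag
Ucp3, chr7:100472741-100472989, plus strand: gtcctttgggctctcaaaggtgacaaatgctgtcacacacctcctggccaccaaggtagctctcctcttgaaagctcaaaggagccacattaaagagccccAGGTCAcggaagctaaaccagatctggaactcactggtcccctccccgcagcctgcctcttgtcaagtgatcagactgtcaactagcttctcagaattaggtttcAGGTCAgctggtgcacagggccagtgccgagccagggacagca
Echs1, chr7:140116477-140116671, minus strand: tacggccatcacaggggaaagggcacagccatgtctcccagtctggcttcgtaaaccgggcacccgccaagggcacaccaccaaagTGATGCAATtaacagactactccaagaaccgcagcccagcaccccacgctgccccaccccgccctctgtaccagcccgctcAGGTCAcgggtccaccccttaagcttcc
Acads, chr5:115119347-115119596, minus strand: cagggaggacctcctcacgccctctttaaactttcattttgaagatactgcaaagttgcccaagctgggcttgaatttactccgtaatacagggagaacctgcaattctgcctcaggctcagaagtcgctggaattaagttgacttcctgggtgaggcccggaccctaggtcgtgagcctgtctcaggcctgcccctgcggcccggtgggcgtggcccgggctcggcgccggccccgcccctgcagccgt
Hadhb and Hadha, chr5:30155163-30155247, plus strand: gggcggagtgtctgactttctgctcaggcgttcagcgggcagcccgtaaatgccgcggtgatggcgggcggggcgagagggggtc
The Acadm match is AGGTCA read on the other strand and begins 249 bases before the start, the Ucp3 matches begin 149 and 44 bases before it, and the Echs1 matches of TGATGNAAT and AGGTCA begin 164 and 83 bases before it. The 85 bases beside Hadhb lie between its exons and those of Hadha, whose RefSeq start is 272 bases away, and hold none of the motifs.

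Of the genes that serve unsaturated fatty acids, the mitochondrial pair fell together. Eci1 (chromosome 17, 24426641 to 24439348, plus strand) encodes the enoyl-CoA isomerase that repositions double bonds, and Decr1 (chromosome 4, 15917240 to 15945507, minus strand) the 2,4-dienoyl-CoA reductase. Eci1 stood at 239, 241, 255 and 243 CPM in BL6J WT and at 166, 153, 149.9 and 143 CPM in BL6J KO. In AJ-F1, Eci1 stood at 260.2, 286, 372 and 337 CPM in AJ-F1 WT and at 230.0, 219 and 203 CPM in AJ-F1 KO. For CAST-F1, Eci1 stood at 308, 356 and 252 CPM in CAST-F1 WT and at 194, 199.7 and 176 CPM in CAST-F1 KO. KO and WT libraries of Eci1 did not overlap in any background. Eci1 fell in all 3 backgrounds, by 0.68 ± 0.12 on the log2 scale for BL6J (adjusted p = 0.00034), 0.53 ± 0.13 for AJ-F1 (adjusted p = 0.0056) and 0.69 ± 0.14 for CAST-F1 (adjusted p = 0.0014). For Eci1, the AJ-F1 call ended with that background fitted alone (adjusted p = 0.101) or with the replicate block (adjusted p = 0.0522).

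Decr1 stood at 312, 350.1, 414 and 402 CPM in BL6J WT and at 239, 240.3, 252 and 254 CPM in BL6J KO. In AJ-F1, Decr1 stood at 326, 389, 276 and 366 CPM in AJ-F1 WT and at 247, 241 and 224 CPM in AJ-F1 KO. For CAST-F1, Decr1 stood at 437, 475 and 366 CPM in CAST-F1 WT and at 289, 326 and 297 CPM in CAST-F1 KO. For this gene too the groups were separate in each background. Decr1 fell in all 3 backgrounds, by 0.58 ± 0.12 on the log2 scale for BL6J (adjusted p = 0.0013), 0.51 ± 0.13 for AJ-F1 (adjusted p = 0.0069) and 0.49 ± 0.14 for CAST-F1 (adjusted p = 0.0168). For Decr1, the CAST-F1 call ended without any one of CAST-F1 WT 1, CAST-F1 WT 2, CAST-F1 KO 1 and CAST-F1 KO 3 (adjusted p = 0.0611 to 0.114) or with a required fold of 1.2 (adjusted p = 0.102). The AJ-F1 call ended with a required fold of 1.2 (adjusted p = 0.0520) or with that background fitted alone (adjusted p = 0.103). Eci2, a peroxisomal and mitochondrial isomerase, and Acaa1a, a peroxisomal thiolase, were not called in any background. Eci2 gave -0.22 ± 0.11 for BL6J (adjusted p = 0.179), -0.28 ± 0.12 for AJ-F1 (adjusted p = 0.0929) and -0.24 ± 0.13 for CAST-F1 (adjusted p = 0.219). Eci2 in AJ-F1 passed the threshold without AJ-F1 WT 2 (adjusted p = 0.0433) or with the DESeq2 Wald test (adjusted p = 0.0419). Averaged over the backgrounds, Eci2 fell by 0.25 ± 0.07 on the log2 scale (adjusted p = 0.0068), a call that ended with a required fold of 1.2 (adjusted p = 0.5265). Acaa1a gave -0.01 ± 0.15 for BL6J (adjusted p = 0.981), -0.17 ± 0.16 for AJ-F1 (adjusted p = 0.423) and 0.10 ± 0.17 for CAST-F1 (adjusted p = 0.722). Each has a close paralog, Eci3 and Acaa1b, with which reads could be shared.

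Etfa and Etfb encode the subunits of the electron transfer flavoprotein, and Etfdh (chromosome 3, 79603788 to 79629500, minus strand) the dehydrogenase that passes its electrons to ubiquinone. Etfdh stood at 625, 721, 704 and 637 CPM in BL6J WT and at 361, 368, 361 and 359 CPM in BL6J KO. In AJ-F1, Etfdh stood at 563, 754, 341 and 519 CPM in AJ-F1 WT and at 391, 382 and 387 CPM in AJ-F1 KO. For CAST-F1, Etfdh stood at 638, 660.0 and 505 CPM in CAST-F1 WT and at 347, 323 and 359.6 CPM in CAST-F1 KO. Groups did not overlap in BL6J and CAST-F1, while in AJ-F1 the library AJ-F1 WT 3 lay below every KO library. Etfdh fell in all 3 backgrounds, by 0.89 ± 0.16 on the log2 scale for BL6J (adjusted p = 0.00026), 0.49 ± 0.17 for AJ-F1 (adjusted p = 0.0354) and 0.81 ± 0.18 for CAST-F1 (adjusted p = 0.0029). For Etfdh, the AJ-F1 call ended without any one of AJ-F1 WT 1, AJ-F1 WT 2, AJ-F1 KO 1, AJ-F1 KO 2, AJ-F1 KO 3 and CAST-F1 WT 1 (adjusted p = 0.0544 to 0.116), with no filter on low counts (adjusted p = 0.0536), with a required fold of 1.2 (adjusted p = 0.117) or with that background fitted alone (adjusted p = 0.236). The replicate block also ended it (adjusted p = 0.130). Etfb was called lower in AJ-F1 and not in BL6J or CAST-F1, nor was its response called different between backgrounds, with log2 fold changes of -0.28 ± 0.15 for BL6J (adjusted p = 0.188), -0.46 ± 0.16 for AJ-F1 (adjusted p = 0.0360) and -0.33 ± 0.17 for CAST-F1 (adjusted p = 0.183). For Etfb, the AJ-F1 call ended without any one of AJ-F1 WT 3, AJ-F1 WT 4, AJ-F1 KO 2 and AJ-F1 KO 3 (adjusted p = 0.0744 to 0.141), with a required fold of 1.2 (adjusted p = 0.134), with that background fitted alone (adjusted p = 0.204) or with the GC offset (adjusted p = 0.197). This call was lost with the replicate block as well (adjusted p = 0.191). Of the exon bases of Etfb 53.0% are also annotated to Gm45233 on the same strand. Etfa was not called in any background, with -0.54 ± 0.22 for BL6J (adjusted p = 0.0891), -0.20 ± 0.24 for AJ-F1 (adjusted p = 0.566) and -0.58 ± 0.26 for CAST-F1 (adjusted p = 0.124), though KO libraries lay below WT libraries in BL6J and CAST-F1. Etfa in BL6J passed the threshold without AJ-F1 WT 3 (adjusted p = 0.0037), with that background fitted alone (adjusted p = 0.0027) or with the GC offset (adjusted p = 0.0036). Etfa in CAST-F1 passed the threshold without AJ-F1 WT 3 (adjusted p = 0.0107), with that background fitted alone (adjusted p = 0.0053) or with the GC offset (adjusted p = 0.0066). Etfa in AJ-F1 passed the threshold without AJ-F1 WT 3 (adjusted p = 0.0348). Averaged over the backgrounds both fell, Etfa by 0.44 ± 0.14 (adjusted p = 0.0132) and Etfb by 0.36 ± 0.09 on the log2 scale (adjusted p = 0.003), and both averaged calls ended with a required fold of 1.2 (adjusted p = 0.106 for Etfa and 0.140 for Etfb).

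None of the uncoupling protein and lipid droplet genes was called within a background. Ucp3, an uncoupling protein of muscle mitochondria that rises with fatty acid supply, ranged over 25.1 to 66.8 CPM for BL6J WT against 18.5 to 55.6 CPM for BL6J KO, over 34.1 to 65.6 CPM for AJ-F1 WT against 24.6 to 49.0 CPM for AJ-F1 KO, and over 23.4 to 74.5 CPM for CAST-F1 WT against 21.2 to 25.0 CPM for CAST-F1 KO. Its log2 fold changes were -0.87 ± 0.37 for BL6J (adjusted p = 0.0997), -0.43 ± 0.39 for AJ-F1 (adjusted p = 0.427) and -1.13 ± 0.43 for CAST-F1 (adjusted p = 0.0699). Ucp3 in BL6J passed the threshold without any one of BL6J WT 1 and BL6J KO 2 (adjusted p = 0.005 to 0.0353). Ucp3 in CAST-F1 passed the threshold without any one of BL6J KO 2 and CAST-F1 WT 3 (adjusted p = 0.0206 to 0.0309) or with the DESeq2 Wald test (adjusted p = 0.0370). Averaged over the backgrounds, Ucp3 fell by 0.81 ± 0.23 on the log2 scale (adjusted p = 0.0064). Ucp2, a related protein of many tissues, gave 0.25 ± 0.34 for BL6J (adjusted p = 0.665), -0.27 ± 0.37 for AJ-F1 (adjusted p = 0.610) and -1.06 ± 0.40 for CAST-F1 (adjusted p = 0.0672). Without AJ-F1 WT 3 the AJ-F1 estimate for Ucp2 turned to 0.26 ± 0.34, adjusted p = 0.602. Ucp2 in CAST-F1 passed the threshold without AJ-F1 WT 3 (adjusted p = 0.0293), with the DESeq2 Wald test (adjusted p = 0.0369) or with that background fitted alone (adjusted p = 0.0012). Plin5, which ties lipid droplets to mitochondria, gave -0.33 ± 0.16 for BL6J (adjusted p = 0.156), -0.19 ± 0.17 for AJ-F1 (adjusted p = 0.425) and -0.25 ± 0.18 for CAST-F1 (adjusted p = 0.374), and its average over the backgrounds fell by 0.26 ± 0.10 (adjusted p = 0.0379). The averaged Plin5 call ended without any one of 8 libraries, AJ-F1 WT 4, AJ-F1 KO 2, BL6J WT 2, BL6J KO 1, BL6J KO 3, CAST-F1 WT 1, CAST-F1 WT 2 and CAST-F1 KO 1 (adjusted p = 0.0609 to 0.0783). It was lost as well with the GC offset (-0.10, adjusted p = 0.347), with a required fold of 1.2 (adjusted p = 0.477) and with the replicate block (adjusted p = 0.0883). Plin2, the general droplet coat protein, gave 0.17 ± 0.15 for BL6J (adjusted p = 0.4662), -0.15 ± 0.16 for AJ-F1 (adjusted p = 0.506) and 0.29 ± 0.17 for CAST-F1 (adjusted p = 0.257). Plin2 in CAST-F1 passed the threshold with that background fitted alone (adjusted p = 0.0431). Its CAST-F1 KO libraries lay above the CAST-F1 WT libraries, at 90.9 to 107 CPM against 76.6 to 81.6 CPM. Of 10 adipocyte markers listed, 8 were on hand and 4 had enough reads to be tested. Adipoq, Plin1, Cidec and Retn, which were not tested, reached at most 4.03 CPM in any library, Cfd 25.5 CPM and Adig 8.65 CPM. The summed level of the 8 was 140.3 to 592 CPM, nearly all from Fabp4 (89.3 to 550.0 CPM) and Cidea (29.4 to 57.5 CPM), which heart also expresses. Of the 4 tested, 2 were called higher in BL6J, 1 in AJ-F1 and 1 in CAST-F1, and 1 lower in BL6J and AJ-F1 and 0 in CAST-F1. Adig was the one higher in each background, with 2.58 ± 0.34 for BL6J (adjusted p = 6.9e-06), 2.21 ± 0.32 for AJ-F1 (adjusted p = 2.6e-05) and 2.61 ± 0.35 for CAST-F1 (adjusted p = 1.1e-05), Cidea was higher in BL6J (0.61, adjusted p = 0.0011), and Fabp4 was lower in BL6J and AJ-F1 (-0.68 and -1.18, adjusted p = 0.0377 and 0.0018). The part of such cells in the results on lipid droplet genes was not tested.

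Levels of the 32 genes in AJ-F1 WT 3 relative to its group varied with base composition. Over the 32 genes, its log2 level relative to the mean of the other 3 AJ-F1 WT libraries had a Pearson r of 0.743 and a Spearman rho of 0.742 with the GC content of the transcript; the genes share a library and are not independent replicates. The same r was -0.603 for AJ-F1 WT 1, -0.689 for AJ-F1 WT 2 and 0.584 for AJ-F1 WT 4. For these the other 3 libraries include AJ-F1 WT 3, whose own trend thus enters the values. Low in AJ-F1 WT 3 were Acadm (368 CPM against 670.3 to 921 CPM in the other 3) and Etfdh (341 CPM against 519 to 754 CPM in the other 3), and high was Ucp2 (188 CPM against 52.5 to 77.9 CPM in the other 3). Without this library 13 of the 32 genes were lower in AJ-F1, where 14.1% of 12285 genes tested were, and 11 of them were among the 14 with it. Slc27a1, Crat and Etfb left the calls, and Acadm (-0.34 ± 0.13, adjusted p = 0.0495) and Etfa (-0.46 ± 0.16, adjusted p = 0.0348) joined them. Of the genes not called either way, Cpt1a (0.00), Fabp3 (0.02) and Plin2 (0.04) turned in sign as Ucp2 did, and Acadl (-0.14), Acaa1a (-0.07), Plin5 (-0.11) and Angptl4 (-0.08) moved by over 1.5 times, as did Cd36. An offset for transcript GC in every library, added after the data had been seen, gave 11 of the 32 genes lower in all 3 backgrounds, where 5.44% of all genes were, and 10 of them were among the 13, with Cd36 gained and Slc27a1, Crat and Acacb lost. With this offset the biological coefficient of variation was 16.8% and without it 20.3%. The offset was fitted to these same counts, so the lower value is no test of it.

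**Figure D4:**
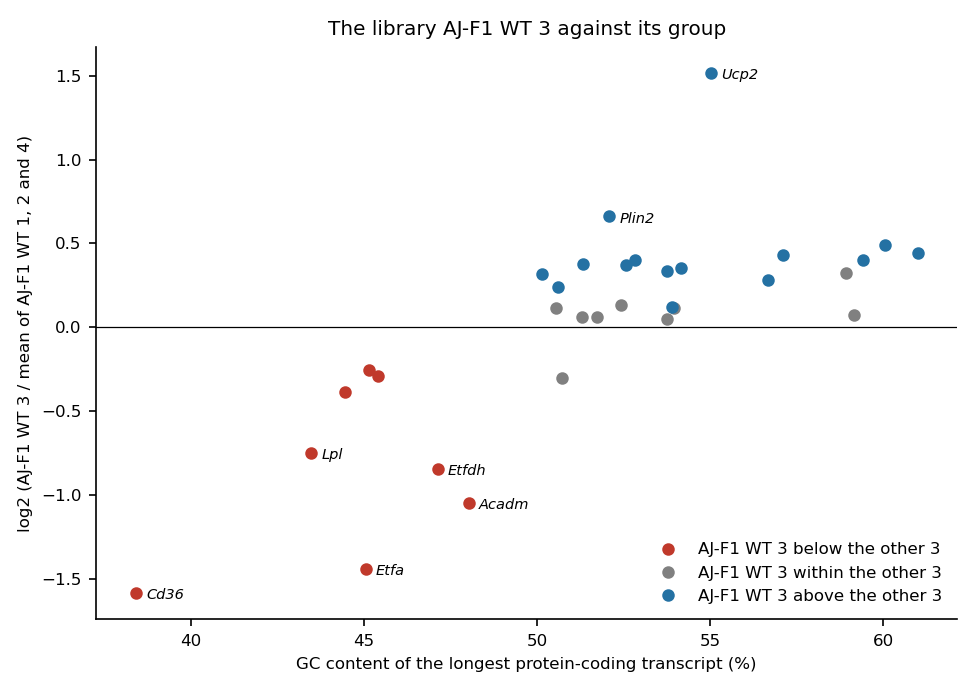
Log2 level of the library AJ-F1 WT 3 relative to the mean of AJ-F1 WT 1, 2 and 4 (vertical axis) against the GC content of the longest protein-coding transcript in percent (horizontal axis), 1 point for each of the 32 genes (red, below the other 3 libraries; grey, within their range; blue, above). The 8 red points, Cd36, Etfa and Acadm among them, lie at the lower GC contents, and Ucp2 is the highest blue point.

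No fatty acid gene passed the test of a different response between backgrounds. Of the 32 genes 3, 2 and 3 had an unadjusted p below 0.05 for AJ-F1 against BL6J, CAST-F1 against BL6J and CAST-F1 against AJ-F1, as did 11.1%, 4.84% and 9.88% of all genes tested. None was called by edgeR or DESeq2, and of all genes tested 0.00811%, 0.0324% and 0.0892% were called. For Acacb the CAST-F1 response minus the AJ-F1 response was -0.66 ± 0.21 on the log2 scale (adjusted p = 0.251; 95% interval -1.07 to -0.26). For Angptl4 the AJ-F1 response minus the BL6J response was -1.76 ± 0.71 (adjusted p = 0.391; 95% interval -3.14 to -0.37). For Hadha the same difference was 0.39 ± 0.16 (adjusted p = 0.395), and for Slc27a1 the difference of CAST-F1 from BL6J was -0.70 ± 0.27 (adjusted p = 0.862). These intervals are not adjusted for the number of genes.

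Among WT hearts, 1 of the 32 genes was called in a comparison of 2 backgrounds. Hadh was higher in CAST-F1 WT than in BL6J WT by 0.45 ± 0.12 on the log2 scale (adjusted p = 0.0312), with no overlap, and was the only one of the 32 called, where 5.73% of all genes were; 6 had an unadjusted p below 0.05, against 19.0% of all genes. The Hadh call ended without any one of BL6J WT 1, BL6J WT 2, BL6J WT 4, CAST-F1 WT 1 and CAST-F1 WT 2 (adjusted p = 0.0526 to 0.165) and with a required fold of 1.2 (adjusted p = 0.247). With the replicate block Hadh was not called (adjusted p = 0.0654) and Slc27a1 was (0.64, adjusted p = 0.0407). Etfa passed with AJ-F1 left out of the fit (0.47, adjusted p = 0.0217) and without AJ-F1 WT 3 (0.46, adjusted p = 0.0491). Between AJ-F1 WT and BL6J WT none of the 32 was called by edgeR or DESeq2, where 3.26% of all genes were, and 4 had an unadjusted p below 0.05, against 22.4% of all genes. Without AJ-F1 WT 2, 6 were called: Mlycd (0.51), Acads (0.45), Eci1 (0.40) and Etfb (0.48) higher, and Lpl (-0.50) and Etfdh (-0.50) lower in AJ-F1 WT. Without AJ-F1 WT 1, Acads (0.52) and Eci1 (0.44) were called. The shares of all genes called in these 2 fits are not given here. In the KO against WT comparison of AJ-F1, leaving out AJ-F1 WT 2 raised the calls over all genes. Lower calls went from 1933 to 2401 and higher calls from 1588 to 2179. Between CAST-F1 WT and AJ-F1 WT none was called, where 5.26% of all genes were, and 3 had an unadjusted p below 0.05, against 21.5% of all genes. Ucp2 came nearest at 1.23 ± 0.37 (adjusted p = 0.0543) and passed in DESeq2 (adjusted p = 0.0192), without AJ-F1 WT 3 (1.76, adjusted p = 0.0048) and without BL6J WT 1 (1.23, adjusted p = 0.0457). Etfa passed without AJ-F1 WT 2 (0.85, adjusted p = 0.0252).

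The regulators that drive fatty acid genes in heart were themselves partly lower. Of 16 PPAR and ERR regulators, 5 were lower and 0 higher in BL6J, 4 lower and 1 higher in AJ-F1, and 5 lower and 0 higher in CAST-F1, with medians of -0.43, -0.03 and -0.23. For this list and those that follow, 9.51%, 15.7% and 9.59% of all genes tested were lower in BL6J, AJ-F1 and CAST-F1. The shares of all genes higher were 12.8%, 12.9% and 10.7%. Perm1, a muscle regulator that acts with PGC-1 and ERR, fell, with log2 fold changes of -0.98 ± 0.12 for BL6J (adjusted p = 1.8e-06), -0.52 ± 0.13 for AJ-F1 (adjusted p = 0.004) and -1.37 ± 0.14 for CAST-F1 (adjusted p = 1.7e-07). Rxra, the main partner receptor of PPARα in heart, gave -0.91 ± 0.17 for BL6J (adjusted p = 0.0004), -0.97 ± 0.18 for AJ-F1 (adjusted p = 0.00054) and -0.87 ± 0.20 for CAST-F1 (adjusted p = 0.0026). Rxrg, a related receptor, gave -0.75 ± 0.15 for BL6J (adjusted p = 0.001), -0.84 ± 0.17 for AJ-F1 (adjusted p = 0.00087) and -0.92 ± 0.18 for CAST-F1 (adjusted p = 0.00077). Esrrb, an ERR family member, gave -0.81 ± 0.16 for BL6J (adjusted p = 0.00081), -0.49 ± 0.17 for AJ-F1 (adjusted p = 0.0393) and -0.99 ± 0.19 for CAST-F1 (adjusted p = 0.00062). All 4, named for the smallest adjusted p of the average, were called lower in each background. Ppara itself, named after its values were seen, gave -1.01 ± 0.20 for BL6J (adjusted p = 0.00076), 0.02 ± 0.21 for AJ-F1 (adjusted p = 0.948) and -0.86 ± 0.23 for CAST-F1 (adjusted p = 0.0111). The difference of its response between AJ-F1 and BL6J was not called (1.03 ± 0.29, adjusted p = 0.211).

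Known PPAR targets outside the 32 genes went both ways. Of 20 listed, 16 were tested, and 4 were lower and 4 higher in BL6J, 4 and 4 in AJ-F1, and 3 and 3 in CAST-F1, with medians of -0.15, 0.17 and 0.00. Acot2, a mitochondrial acyl-CoA thioesterase, rose, with 1.502 ± 0.21 for BL6J (adjusted p = 1.6e-05), 2.17 ± 0.22 for AJ-F1 (adjusted p = 2.9e-07) and 2.07 ± 0.25 for CAST-F1 (adjusted p = 2.5e-06). Its cytosolic neighbour Acot1 gave -1.69 ± 0.31 for BL6J (adjusted p = 0.0004), -1.88 ± 0.35 for AJ-F1 (adjusted p = 0.0004) and -0.70 ± 0.33 for CAST-F1 (adjusted p = 0.141); the pair are close paralogs whose reads could be split. Ehhadh, the peroxisomal bifunctional enzyme, gave -0.91 ± 0.24 for BL6J (adjusted p = 0.0094), -0.62 ± 0.26 for AJ-F1 (adjusted p = 0.0734) and -1.15 ± 0.28 for CAST-F1 (adjusted p = 0.005). Fgf21, a secreted hormone, had 2, 1 and 1 reads in all over the WT libraries of BL6J, AJ-F1 and CAST-F1, and 16.8 to 82.4 CPM, 34.8 to 45.03 CPM and 27.9 to 47.2 CPM in the KO libraries.

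Of 25 further genes of β-oxidation and carnitine handling, 23 were tested, and 6 were lower and 1 higher in BL6J, 8 lower and 0 higher in AJ-F1, and 5 lower and 1 higher in CAST-F1, with medians of -0.23, -0.17 and -0.15. Acat1, the thiolase that also serves ketone bodies, gave -0.93 ± 0.14 for BL6J (adjusted p = 3.1e-05), -0.56 ± 0.15 for AJ-F1 (adjusted p = 0.0075) and -0.84 ± 0.16 for CAST-F1 (adjusted p = 0.00057). Acad12, an acyl-CoA dehydrogenase family member, gave -0.66 ± 0.14 for BL6J (adjusted p = 0.0014), -0.64 ± 0.15 for AJ-F1 (adjusted p = 0.0035) and -0.83 ± 0.16 for CAST-F1 (adjusted p = 0.00083). Echdc3, an enoyl-CoA hydratase domain protein, gave -1.17 ± 0.16 for BL6J (adjusted p = 8.8e-06), -1.36 ± 0.17 for AJ-F1 (adjusted p = 4.2e-06) and -0.90 ± 0.18 for CAST-F1 (adjusted p = 0.0011). Those 3 were called lower in each background. Slc22a4, a carnitine and ergothioneine transporter of the plasma membrane, gave 2.77 ± 0.36 for BL6J (adjusted p = 5.8e-06), 0.77 ± 0.39 for AJ-F1 (adjusted p = 0.140) and 1.82 ± 0.42 for CAST-F1 (adjusted p = 0.0034).

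Of 15 partners of lipid uptake, 13 were tested, and 3 were lower and 1 higher in BL6J, 9 lower and 1 higher in AJ-F1, and 3 lower and 0 higher in CAST-F1, with medians of -0.39, -0.62 and -0.43. Vldlr, a receptor for triglyceride-rich lipoproteins, gave -1.11 ± 0.23 for BL6J (adjusted p = 0.001), -0.37 ± 0.24 for AJ-F1 (adjusted p = 0.270) and -1.10 ± 0.26 for CAST-F1 (adjusted p = 0.0047). Cav1, the caveolar coat protein of endothelium, gave -0.82 ± 0.24 for BL6J (adjusted p = 0.0158), -1.18 ± 0.26 for AJ-F1 (adjusted p = 0.0024) and -0.58 ± 0.28 for CAST-F1 (adjusted p = 0.147). Fabp4 and Fabp5, fatty acid binding proteins of capillary endothelium, were at -1.18 and -1.58 in AJ-F1 (adjusted p = 0.0018 and 0.00043). Of 12 endothelial markers, 11 were lower in AJ-F1, 1 in BL6J (Cav1) and 0 in CAST-F1, and none was at 0 in any library. Their summed level was 1938 to 4289.9 CPM for AJ-F1 WT against 1081 to 1841 CPM for AJ-F1 KO, 1772 to 2450.0 and 1089 to 2201 CPM in BL6J, and 2339 to 3612 and 2153 to 2514 CPM in CAST-F1. Cav1 and Gpihbp1 are on both lists. All 9 fibroblast markers were lower in AJ-F1, 2 in BL6J and 0 in CAST-F1, with sums of 1320.3 to 2449 CPM for AJ-F1 WT against 739 to 812 CPM for AJ-F1 KO. The part of these cells in the uptake results was not tested.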

How the data were processed

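RNA sequencing of 21 heart ventricle libraries was analysed. Per the labels' protocols they were stranded libraries of polyA RNA. Tools named in the submitters' processing notes are featureCounts, HISAT and DESeq2, on GRCm38.p6, with no versions or settings; whether counting used strand is not given in the sources used here. All results rest on the raw read counts that the authors deposited for each gene and library; the lowest total of a gene is 10 reads. The 42 other columns of per-library values, variance-stabilised values and z-scores, were not used.

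Samples were grouped by background and genotype. Genes that passed filterByExpr (12333 of 14732, 99.9% of counts) were fitted in edgeR 4.0.16 (limma 3.58.1, R 4.3.3) with TMM factors, 6 group means and robust quasi-likelihood F tests, two-sided, adjusted by Benjamini-Hochberg. The SE is the log2 fold change divided by the root of F. Libraries of a group correlated with r of 0.895 to 0.983 (27 pairs), and 0 pairs were identical. The script was tested on simulated counts.

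The members and lists were chosen with earlier results of these data known. Values per library are given for members lower in all 3 backgrounds and for the largest called changes, and up to 4 genes of each further list by smallest adjusted p of the average. Positions are GENCODE, GRCm38; CPM per kb uses the union of exons. Alternatives were size factors of the DESeq2 type (RLE) within edgeR, the Wald test of DESeq2 1.42.0, other filters and a fold of at least 1.2. Further ones were each background alone, a replicate block, each library left out, and a GC offset (98.7% of genes) added after seeing the data.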

Additional observations from a re-analysis of the deposited data

Results flagged for a closer look

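Groups of 4 libraries were searched for a library far from the others, with Dixon's ratio above its 95% critical value, in 96 groups of the 32 genes, of which 2 were picked out; chance picks out about 1 in 20. Cpt1a stood at 38.9 CPM in BL6J WT 1 and at 56.3 to 59.2 CPM in the other BL6J WT libraries. Ucp3 stood at 55.6 CPM in BL6J KO 2 and at 18.5 to 20.2 CPM in the other BL6J KO libraries. Without BL6J KO 2 the fall of Ucp3 in BL6J was called (-1.41, adjusted p = 0.0050). Neither has been followed further.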

How the results depend on the processing

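No called result changed direction under the alternatives run. Same-numbered libraries of a background correlated at -0.229 to 0.081 in their deviations from the group means, so the numbers do not pair them, and 2 of 10 KO libraries correlated best with the WT library of their own number. With a block of replicate number, 15 of the 32 genes were lower in BL6J, 7 in AJ-F1, 13 in CAST-F1 and 21 on average, and 0 were higher in BL6J. Of all genes, 951, 1113, 935 and 2518 were lower with the block, against 1173, 1933, 1183 and 2987 in the main fit. Higher in BL6J were 1317 of all genes with the block and 1583 in the main fit. With a required fold of 1.2, 7 were lower in AJ-F1 and 11 in CAST-F1, and 0 differed between CAST-F1 WT and BL6J WT. The required fold left 1341 of all genes lower in AJ-F1 and 837 in CAST-F1. With only the backgrounds of the comparison fitted, 4 were lower in AJ-F1, 1 was higher in CAST-F1 (Plin2) and 2 differed between CAST-F1 WT and BL6J WT. That setting gave 744 of all genes lower in AJ-F1 and 2110 higher in CAST-F1, against 1933 and 1315 in the main fit. Between CAST-F1 WT and AJ-F1 WT, 1 differed with a minimum of 1 CPM, 1 with DESeq2's Wald test and 3 with the GC offset. The causes were not tested. Leaving out each library in turn gave 13 to 19 genes lower and 1 higher in BL6J, 8 to 15 lower in AJ-F1, 11 to 19 lower and 0 to 1 higher in CAST-F1, and 21 to 24 lower on average. Over all genes, lower calls ran from 845 to 1575 in BL6J, 1159 to 2401 in AJ-F1, 827 to 1458 in CAST-F1 and 2711 to 3212 on average. AJ-F1 fell to 9 without AJ-F1 WT 4 and to 8 without AJ-F1 KO 2, and CAST-F1 to 11 without CAST-F1 WT 2. In those fits 1616, 1639 and 917 of all genes were lower. The WT comparisons gave 0 to 6, 0 to 2 and 0 to 1, and the response differences 0 throughout. Shares of all genes called in the WT comparisons are not given here for any alternative. Groups of 3 or 4 libraries limit what could be called.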

Other observations

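Some lipid droplet genes outside the 32 were called in each background. Of 19 listed, 17 were tested, and 6 were lower and 3 higher in BL6J, 5 and 2 in AJ-F1, and 4 and 2 in CAST-F1. Fitm1, which helps to form droplets in muscle, fell, with -1.57 ± 0.19 for BL6J (adjusted p = 2.5e-06), -1.64 ± 0.21 for AJ-F1 (adjusted p = 6.3e-06) and -1.53 ± 0.22 for CAST-F1 (adjusted p = 2.8e-05). Its relative Fitm2 gave -0.67 ± 0.11 for BL6J (adjusted p = 0.00012), -0.79 ± 0.12 for AJ-F1 (adjusted p = 6.0e-05) and -1.07 ± 0.13 for CAST-F1 (adjusted p = 2.8e-06), the coat protein Plin3 -1.03 ± 0.13 for BL6J (adjusted p = 3.1e-06), -0.94 ± 0.14 for AJ-F1 (adjusted p = 3.3e-05) and -0.88 ± 0.15 for CAST-F1 (adjusted p = 0.00016), and Dgat2, an enzyme of triglyceride synthesis, -0.77 ± 0.15 for BL6J (adjusted p = 0.00074), -0.997 ± 0.17 for AJ-F1 (adjusted p = 0.00017) and -0.91 ± 0.18 for CAST-F1 (adjusted p = 0.00077). Abhd5, the coactivator of adipose triglyceride lipase, was called higher in each background and was named after its values were seen (0.50 ± 0.13 for BL6J (adjusted p = 0.0059), 0.51 ± 0.13 for AJ-F1 (adjusted p = 0.0076) and 0.48 ± 0.15 for CAST-F1 (adjusted p = 0.0214)).

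Of 16 genes of malonyl-CoA and fatty acid synthesis, 3 were lower and 5 higher in BL6J, 6 and 2 in AJ-F1, and 3 and 0 in CAST-F1. Acaca, the cytosolic acetyl-CoA carboxylase, gave 1.2005 ± 0.16 for BL6J (adjusted p = 6.0e-06), 0.85 ± 0.16 for AJ-F1 (adjusted p = 0.00053) and 0.40 ± 0.17 for CAST-F1 (adjusted p = 0.116), against the fall of Acacb. Mid1ip1 and Thrsp, small proteins that modulate acetyl-CoA carboxylase, were called lower in each background. Mid1ip1 gave -0.78 ± 0.21 for BL6J (adjusted p = 0.0103), -1.24 ± 0.24 for AJ-F1 (adjusted p = 0.00059) and -0.86 ± 0.25 for CAST-F1 (adjusted p = 0.0163), and Thrsp -0.86 ± 0.24 for BL6J (adjusted p = 0.0116), -2.49 ± 0.27 for AJ-F1 (adjusted p = 6.9e-07) and -1.42 ± 0.27 for CAST-F1 (adjusted p = 0.00072). Prkab1, a subunit of AMP-activated protein kinase, gave -0.49 ± 0.16 for BL6J (adjusted p = 0.0269), -0.85 ± 0.17 for AJ-F1 (adjusted p = 0.00082) and -1.10 ± 0.18 for CAST-F1 (adjusted p = 0.00013). Macrophage markers were not called in any background (0 of 10), nor were erythrocyte markers (0 of 5 tested), and smooth muscle and pericyte markers were lower for 1, 6 and 3 of 9 and higher for 1, 0 and 0.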
